A study of Mus musculus with 6 samples.

Results

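The regulators of G protein signalling (RGS proteins) described here are Rgs2, Rgs3, Rgs4, Rgs5, Rgs6, Rgs10 and Rgs16, followed in brain mural cells, the pericytes and smooth muscle cells of the vessel wall. These 7 genes were taken by name from 23494 genes measured in the series, and each had at least 1 UMI (unique molecular identifier, 1 captured transcript) in all 6 libraries. Cortical cells carrying tdTomato and excluding DAPI were sorted from tamoxifen-treated mice aged 3 to 4 months of 2 lines. One had the genotype NG2-Cre-ERT2/Ai14-flx. The other had the genotype Tbx18-CreERT2/Ai14-flx, and Ai14-flx is in both a tdTomato reporter opened by Cre. For each line there was a naive library, a physical injury library (saline injection) and an ischemic injury library (ischemic stroke by ET-1/L-NAME injection), the injured mice having received tamoxifen 7 days before injury and their cells being taken 3 days after it. Animals of both sexes were pooled into 1 library per group, so differences between groups have no replicate check and no p-value is given. All intervals are 95% intervals that cover counting error only.

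The NG2 line marks cells in which the NG2 (Cspg4) promoter was active at the time of tamoxifen, oligodendrocyte precursors included, and their descendants. The Tbx18 line does so for cells in which Tbx18 was active at that time. The libraries held 686 to 4306 cells, with 3153996 to 54276245 UMIs in all and a median of 2806 to 9232 UMIs per cell. Cells were grouped by the deposited cluster numbers, checked against marker lists. In the NG2 data clusters 0, 1 and 2 were pericyte-like (3243 naive, 1106 physical injury and 1085 ischemic injury cells) and cluster 3 was smooth muscle-like (503, 242 and 277 cells). In the Tbx18 data cluster 2 was pericyte-like (226, 433 and 86 cells), with mesenchymal-like markers as its second list, and cluster 1 was smooth muscle-like (63, 827 and 47 cells). Over the 15 pairs of libraries 30 cell barcodes were shared, with 0 to 5 in a pair. Levels are in CPM, the usual scaling of a gene's UMIs by all UMIs of the summed cells, and because the 3' protocol counts molecules they were not divided by gene length.

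RGS proteins bind the activated alpha subunit of a heterotrimeric G protein and speed its hydrolysis of GTP, which shortens the signal that a receptor sends. In the vessel wall these receptors sense endothelin, angiotensin, noradrenaline and thromboxane, among others, and RGS proteins thereby help to set contractile tone. Rgs5 is a widely used marker of brain pericytes, so its high level in them is known in advance, and the study used it among the markers that named pericytes in the Tbx18 data. Rgs2, Rgs3, Rgs4, Rgs5 and Rgs16 belong to the R4 subfamily, of which Rgs2 is known for its preference for Gq. Rgs6 belongs to the R7 subfamily, whose members pair with the G beta subunit Gnb5, and Rgs10 to the R12 subfamily, which acts on Gi family subunits.

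Rgs4, Rgs5 and Rgs16 are known substrates of the N-degron pathway, in which a cysteine exposed at the start of the protein is oxidised by Ado, arginylated by Ate1 and recognised by Ubr ligases, so that the protein is removed when oxygen is present. The start of each coding sequence is printed because this feature divides the 7 genes, and it was read from the GENCODE M21 transcripts (mm10). Each line gives the first 30 coding bases, 5′ to 3′, with the second codon in capitals where it encodes cysteine.
Rgs5: atgTGTaagggactggcagctctgccgcac
Rgs4: atgTGCaaaggacttgcaggtctgccggct
Rgs16: atgTGCcgcaccctagccaccttccccaac
Rgs2: atgcaaagtgccatgttcctggctgtccag
Rgs3: atggagaggccacatcaggatgcttccttg
Rgs6: atggctcaggggtccggggaccagcgagca
Rgs10: atgttcacccgcgccgtgagccgactgagc
All annotated coding transcripts of Rgs4, Rgs5 and Rgs16 had cysteine as the second codon (2 of 2, 2 of 2 and 1 of 1), none of Rgs2, Rgs3 and Rgs6 had it, and for Rgs10 it was found in 1 of 3. The transcript counts do not separate these isoforms, and protein levels were not measured.

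In mm10, 4 of the 7 genes lie on chromosome 1. Rgs5 (chr1:169655501-169695813, plus strand) and Rgs4 (chr1:169741477-169747642, minus strand) are neighbours, 45663 bp apart with 0 annotated genes between them. Rgs2 (chr1:143999338-144004161, minus strand) and Rgs16 (chr1:153740349-153745468, plus strand) lie at lower coordinates of the same chromosome. Rgs3 (chr4:62559847-62704001, plus strand), Rgs10 (chr7:128373621-128418758, minus strand) and Rgs6 (chr12:82588292-83162056, plus strand) lie on 3 other chromosomes. Rgs6 is by far the longest of the 7, with a span of 573765 bp against 4824 to 144155 bp for the others. It overlaps 1700030I03Rik on its own strand, and Rgs10 overlaps Gm15503 on its own strand, so reads in these overlaps could be assigned to either gene.

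Rgs5 was the most abundant of the 7 genes in the mural cells of every library, followed by Rgs4. In NG2 pericyte-like cells Rgs5 stood at 7554 CPM (7507 to 7602) in the naive, 7448 CPM (7375 to 7521) in the physical injury and 8802 CPM (8717 to 8888) in the ischemic injury library. Rgs4 followed at 1662, 1531 and 1398 CPM, and Rgs6 at 280, 416 and 256 CPM. The order Rgs5, Rgs4, Rgs6 was the same in all 3 libraries, with counting intervals that did not overlap between these genes.

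The other 4 genes were near or under 100 CPM in the same cells. Rgs10 was at 90.4, 75.8 and 87.1 CPM in the naive, physical injury and ischemic injury libraries, and Rgs3 at 47.7, 65.1 and 47.0 CPM. Rgs16 was at 21.3, 21.8 and 43.5 CPM. Rgs2 was close to absent from these pericytes, with 22, 4 and 20 UMIs in all, which is 1.72, 0.747 and 4.31 CPM. Of these neighbours in the order, Rgs10 and Rgs3 did not overlap in the naive and the ischemic injury libraries (85.3 to 95.7 against 43.9 to 51.6 CPM, and 78.8 to 96.0 against 41.0 to 53.7 CPM). In the physical injury library their intervals overlapped (68.6 to 83.5 against 58.5 to 72.3 CPM), and in the ischemic injury library Rgs3 and Rgs16 could not be ordered (41.0 to 53.7 against 37.75 to 49.98 CPM).

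**Figure D1:**
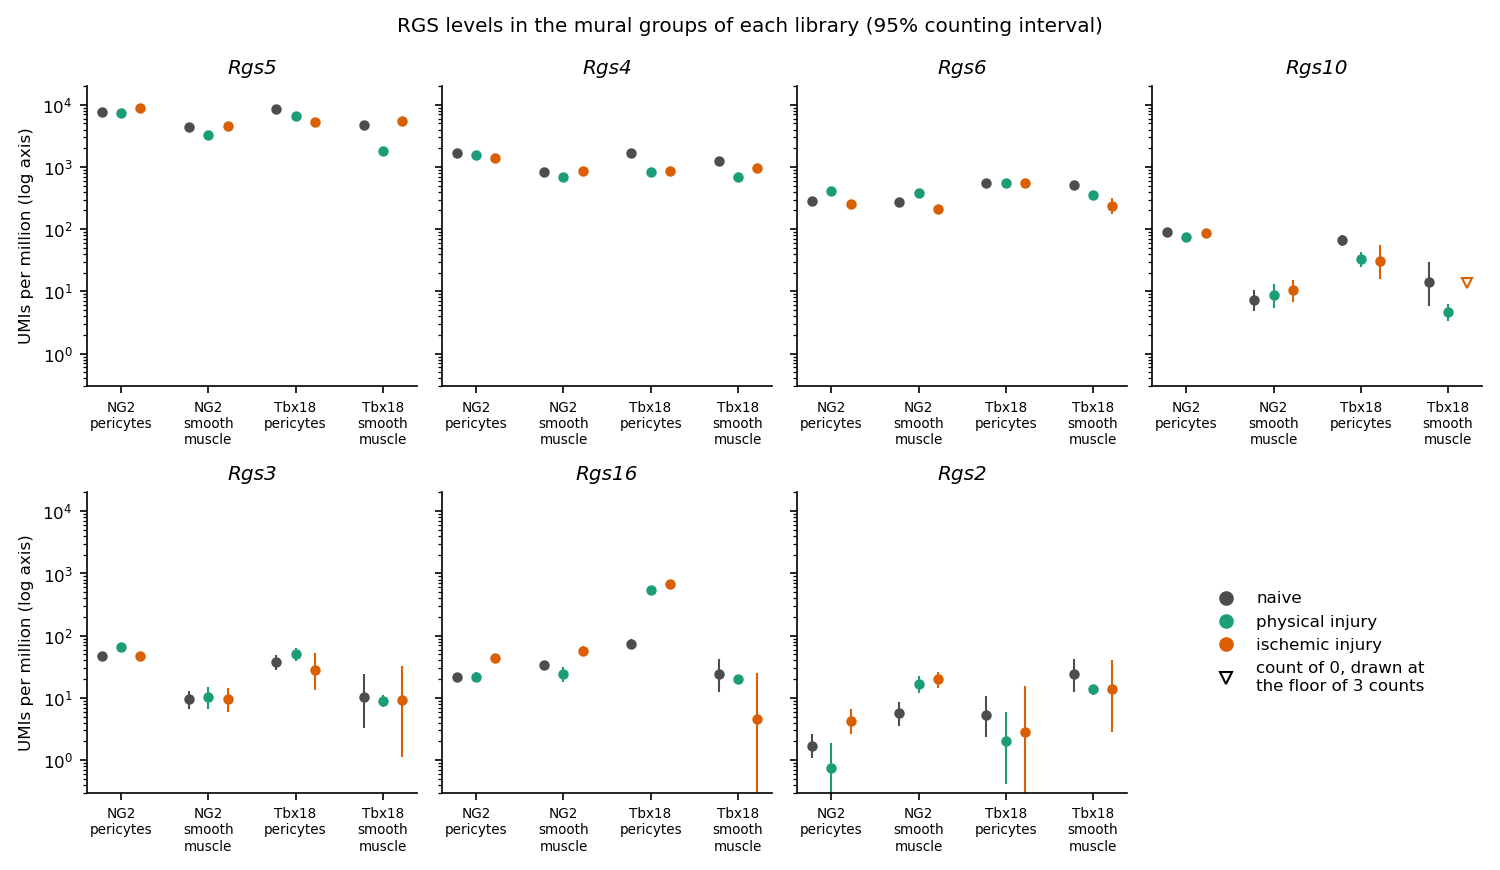
CPM (log axis) of each RGS gene in the pericyte-like and smooth muscle-like cells of both lines, with 1 point per library and bars for the 95% counting interval. An open triangle marks a count of 0, drawn at 3 counts. Rgs5, Rgs4 and Rgs6 lie at 212 CPM or more in every group shown, Rgs10 and Rgs3 are higher in pericytes than in smooth muscle, and Rgs16 stands at 542 and 670 CPM in the injured Tbx18 pericytes against 73.3 CPM in the naive ones.

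Rgs5 alone made up 77.6 to 82.4% of all RGS UMIs in the NG2 pericyte-like cells of the 3 libraries. In NG2 smooth muscle-like cells its share was 73.6 to 79.1%, and in the Tbx18 physical injury smooth muscle it was 60.9%. The 7 genes together held at least 98.3% of the UMIs of all RGS genes in every mural group. None of the other 13 RGS genes in these tables reached 50 CPM in a mural group, and the highest of them in each group (Rgs19, Rgs17 or Rgs12) stood between 6.12 and 36.3 CPM.

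Single cells gave the same picture of an almost universal Rgs5 and a frequent Rgs4. When each cell was thinned to 1000 UMIs, which left out 35, 20 and 56 shallower cells, Rgs5 had a UMI in 99.6, 99.9 and 99.9% of NG2 pericyte-like cells of the naive, physical injury and ischemic injury libraries. At that depth Rgs4 had a UMI in 73.8, 70.7 and 67.1% of them, and Rgs6 in 20.8, 30.3 and 19.9%. Without thinning, Rgs5 and Rgs4 were found together in 95.1, 95.8 and 92.4% of the cells. As a measure of the background, in NG2 cluster 4, named oligodendrocytes in the study and holding Mog at 2069 to 2924 CPM, Rgs5 had a UMI in 3.03, 1.71 and 3.67% of cells thinned to the same depth. Without thinning these shares were 16.5, 10.9 and 14.5% at medians of 13252, 23779 and 29600.5 UMIs, against 99.9, 100 and 99.7% of pericyte-like cells at medians of 3821, 4683.5 and 4202 UMIs.

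Smooth muscle-like cells of the NG2 line carried less Rgs5 and Rgs4 than pericytes of the same library and hardly any Rgs10 or Rgs3, with a smaller difference in Rgs6. The clusters were formed on expression, so these differences are a description. In the NG2 naive library Rgs5 was at 4314 CPM in smooth muscle, against 7554 CPM in pericytes, a ratio of pericytes over smooth muscle of 1.75 (1.72 to 1.78). Rgs4 was at 827 CPM (ratio 2.01, 1.94 to 2.09) and Rgs6 at 274 CPM (ratio 1.02, 0.95 to 1.09). The Rgs6 ratio was 1.11 (1.03 to 1.20) in the physical injury and 1.20 (1.08 to 1.34) in the ischemic injury library. Rgs10 divided the cell types most, at 7.20 CPM in smooth muscle and a ratio of 12.6 (8.64 to 19.0), followed by Rgs3 at 9.51 CPM and a ratio of 5.01 (3.59 to 7.18).

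Rgs2 and, in the NG2 line, Rgs16 went the other way. Rgs2 was at 5.66, 16.9 and 19.9 CPM in NG2 smooth muscle (22, 41 and 46 UMIs), above its level in the pericytes of each library, with smooth muscle over pericytes at 3.29 (1.74 to 6.23) in the naive library. Rgs16 was at 33.4, 23.9 and 56.7 CPM, with a ratio of smooth muscle over pericytes of 1.57 (1.26 to 1.94) in the naive, 1.09 (0.78 to 1.51) in the physical injury and 1.30 (1.04 to 1.63) in the ischemic injury library. The physical injury interval includes 1, so at this depth the sides could not be told apart there. In the Tbx18 line the order for Rgs10 and Rgs3 was the same, with pericytes over smooth muscle at 4.66 (2.18 to 11.9) and 3.69 (1.49 to 11.8) in the naive library. In the summed Tbx18 ischemic injury cells Rgs5 was at 5364 CPM in pericytes and 5448 CPM in smooth muscle. The ratio of 0.98 (0.92 to 1.06) did not tell the cell types apart. For Rgs4 the ratio was 0.89 (0.74 to 1.06, from 857 and 966 CPM), and its interval also includes 1. Thinned cells, in which each cell weighs the same, had more Rgs5 in smooth muscle. It was at 6650 and 12300 CPM there, in cells above and not above their median of immediate early UMIs (described below). In pericytes split the same way it was at 4432 and 5526 CPM. Rgs6 was higher in Tbx18 pericytes than in smooth muscle after injury, with ratios of 1.59 (1.47 to 1.72) in the physical injury and 2.34 (1.71 to 3.24) in the ischemic injury library against 1.11 (0.96 to 1.28) in the naive one.

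The smooth muscle-like cluster of the NG2 data was itself mixed with regard to Rgs5. Of its 503 naive cells, 108 (21.5%) lie in cluster 5 of the separate clustering of the naive libraries, which is pericyte-like, and 393 in its smooth muscle-like cluster 4. Rgs5 stood at 8783 CPM (8508 to 9065) in the former and at 3747 CPM (3682 to 3812) in the latter. Vtn, a pericyte marker, stood at 7559 against 948 CPM, and Acta2, the smooth muscle actin, at 5174 against 13352 CPM. Rgs4 (986 against 808 CPM) and Rgs6 (306 against 268 CPM) differed less.

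**Figure D2:**
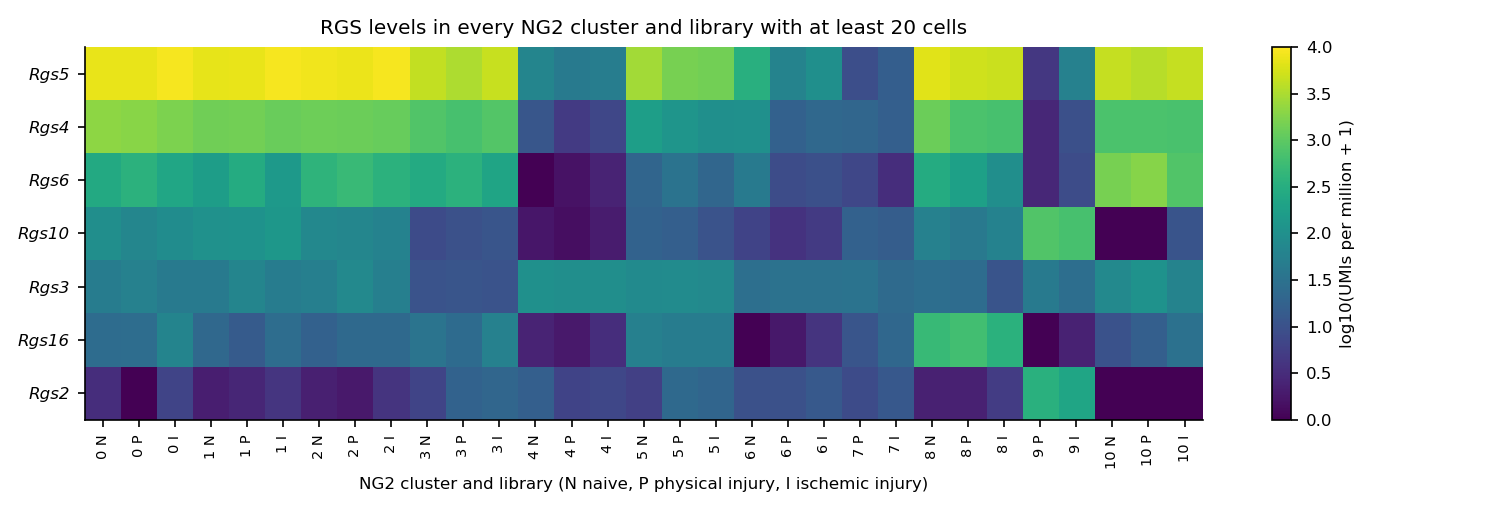
Levels of the 7 RGS genes as log10(CPM + 1) in every NG2 cluster and library with at least 20 cells (columns, cluster number with N for naive, P for physical injury and I for ischemic injury). Rgs5, Rgs4 and Rgs6 are high in clusters 0 to 3, 8 and 10, Rgs16 stands out in cluster 8, and Rgs2 and Rgs10 are highest in the injured libraries of cluster 9, whose 18 naive cells are not drawn.

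After injury, the RGS genes above 50 CPM in NG2 pericyte-like cells stayed within 2-fold. Of the 4146 genes that reached 50 CPM in at least 1 of the compared groups, 0.603% were past 2-fold either way between the physical injury and the naive library, and 0 of the 5 RGS genes tested were among them. Between the ischemic injury and the naive library 0.393% of 4068 genes were past 2-fold and 0 of the 4 RGS genes tested, and between both injuries 0.818% of 4159 genes and 0 of 5. At these shares a set of 4 or 5 genes would seldom hold a call, so these counts do not set the RGS genes apart from other genes. Rgs16 and Rgs2 were under 50 CPM and outside these counts, and with 1 library per group the spread between animals is unknown.

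The largest of these changes among the genes above 50 CPM was that of Rgs6, which was higher after physical injury than in both other libraries. It rose from 280 to 416 CPM, a ratio of 1.49 (1.41 to 1.57), and at 256 CPM after ischemic injury it was at 0.92 (0.86 to 0.98) of naive and at 0.61 (0.57 to 0.66) of the physical injury level. Each cluster alone gave the same direction for physical injury, with 1.41 in cluster 0, 1.77 in cluster 1 and 1.32 in cluster 2. Long genes moved with Rgs6 in these libraries. The median log2 ratio of physical injury against naive was 0.24 over 788 genes spanning over 100 kb and -0.16 over 1607 genes under 20 kb, against 0.57 for Rgs6, and it was -0.25 over the long genes between ischemic and physical injury, against -0.70 for Rgs6. The sources used here do not say whether intronic reads were counted or which Cell Ranger version each library had, and the part of gene length in the values of Rgs6 was not tested.

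Rgs5 and Rgs4 moved in opposite directions after ischemic injury. Rgs5 was 1.17 times its naive level (1.15 to 1.18), with 1.21, 1.22 and 1.08 in clusters 0, 1 and 2, but its direction turned to -0.024 on the log2 scale with clusters 8 and 10 added. Rgs4 was at 0.84 (0.82 to 0.87) of naive after ischemic injury and at 0.92 (0.90 to 0.95) after physical injury. For Rgs4 the ischemic ratio was 0.76 (0.73 to 0.79) in cluster 0, the cluster the study named activated pericytes, and 0.91 and 0.89 in clusters 1 and 2. Rgs5 after physical injury was within 2% of naive (0.986, 0.974 to 0.998), and that direction turned with the cluster, at 1.01, 1.03 and 0.91.

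Rgs16 doubled after ischemic injury, but from a low level. It went from 21.3 CPM (18.9 to 24.0) in the naive library and 21.8 CPM (18.1 to 26.2) after physical injury to 43.5 CPM (37.75 to 49.98), which is 2.04 times naive (1.69 to 2.46) and 1.99 times the physical injury level (1.58 to 2.53). The level stayed under the 50 CPM asked for a call. The ratio was highest in cluster 0, where Rgs16 reached 62.8 CPM against 24.6 CPM in naive cells (ratio 2.55, 2.01 to 3.25). It was 1.19 (0.72 to 1.91) in cluster 1 and 1.34 (0.84 to 2.09) in cluster 2. Cells of NG2 clusters 0 to 2 with and without a UMI of the mesenchymal-like markers Nnmt, Col1a1 or Dcn overlapped in Rgs16 after ischemic injury, at 37.9 CPM (25.7 to 53.7) and 44.8 CPM (38.3 to 52.0). In these clusters as a whole Nnmt was then at 6.90, Col1a1 at 0.22 and Dcn at 44.8 CPM, so the marker UMIs were mostly of Dcn. In Tbx18 cluster 2 Nnmt was at 64.7 CPM after physical and 73.8 CPM after ischemic injury, so this split need not pick like cells in both lines.

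Rgs3 and Rgs10 made smaller moves in NG2 pericytes. Rgs3 was at 1.37 (1.19 to 1.56) of naive after physical injury and 0.99 (0.84 to 1.15) after ischemic injury. Rgs10 was at 0.84 (0.75 to 0.94) and 0.96 (0.86 to 1.08). Rgs2 stayed under 5 CPM, with 4 UMIs after physical and 20 after ischemic injury against 22 in the naive library. Its ratios to naive were 0.43 (0.11 to 1.28) and 2.51 (1.30 to 4.82).

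**Figure D3:**
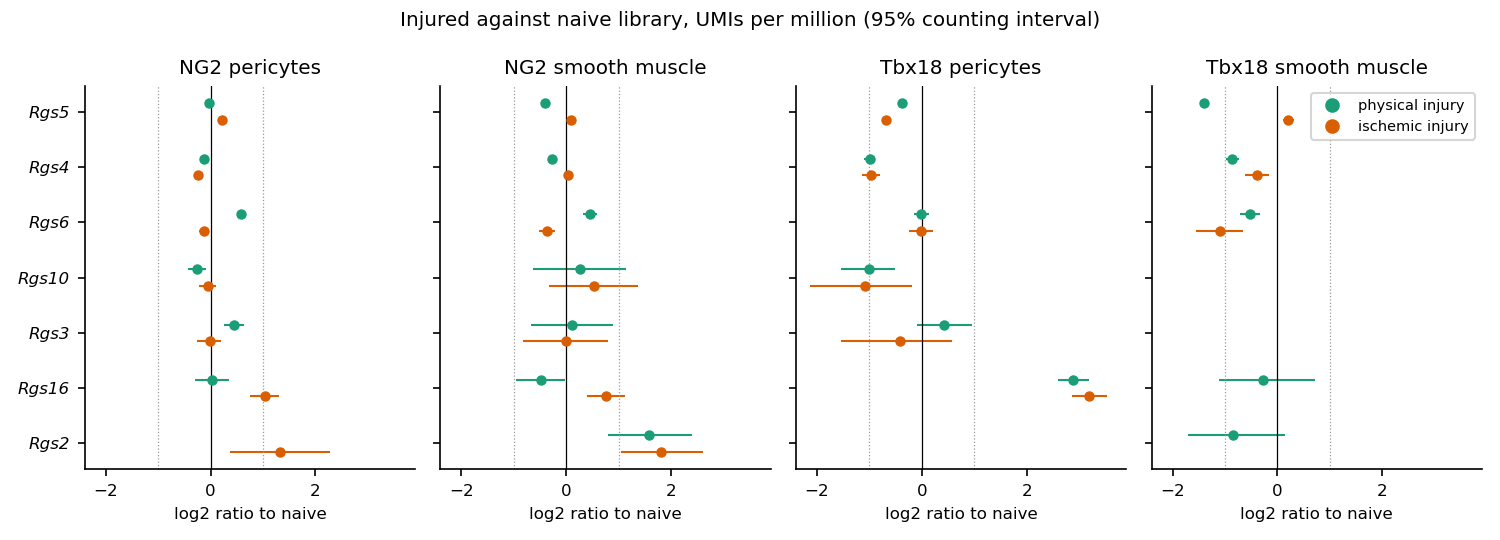
Log2 ratio of each injured library to the naive library of the same line (points, with 95% counting intervals as bars) for RGS genes with at least 10 UMIs on both sides, with dotted lines at 2-fold. In NG2 cells the points past 2-fold are Rgs16 in pericytes after ischemic injury and Rgs2, which lies at 1.33 in pericytes after ischemic injury and at 1.58 and 1.81 in smooth muscle from low counts, whereas Rgs16 in Tbx18 pericytes lies at 2.89 and 3.19 and Rgs5 in Tbx18 smooth muscle at -1.41 after physical injury.

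The immediate early genes, which respond to stimulation within minutes and also to tissue handling, had the most genes past 2-fold of the lists examined in NG2 pericytes. Between physical injury and naive, 7 of 11 were lower past 2-fold and 0 higher, with a median log2 ratio of -1.18 against -0.03 over all genes tested. Between ischemic and physical injury 9 of 11 were higher and 0 lower (median 1.41 against 0.01), and between ischemic injury and naive 0 of 11 were past 2-fold. Fos stood at 5125, 2118 and 5853 CPM in the naive, physical injury and ischemic injury libraries, Egr1 at 1843, 646 and 2457, Atf3 at 245, 55.4 and 280, Ier2 at 600, 265 and 720, Dusp1 at 644, 240 and 631, and Nr4a1 at 93.0, 63.8 and 172 CPM.

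Rgs4 followed these genes in part, between cells and clusters but not between all libraries. After ischemic injury Rgs4 was at its lowest (1398 CPM) while Fos was at its highest (5853 CPM). Over the 9 combinations of clusters 0 to 2 and libraries, Pearson's r of log2(CPM + 1) with Fos was 0.74 for Rgs4, 0.73 for Rgs16, 0.05 for Rgs5, -0.13 for Rgs6 and -0.63 for Rgs3. The 9 points share libraries and depth, and their clusters were formed on expression, so these values are a description. Cluster 0, which has Rgs4 among its leading genes, held Fos at 9475, 4338 and 9850 CPM, against 625 to 1972 CPM in clusters 1 and 2. NG2 pericyte-like cells thinned to 1000 UMIs were split at their own median of summed immediate early UMIs in each library. Cells above it had 1.52 (1.44 to 1.61), 1.32 (1.20 to 1.46) and 1.23 (1.11 to 1.37) times the Rgs4 of the other cells in the naive, physical injury and ischemic injury libraries. Within a single cluster, cut at that cluster's own median, the ratio was 1.20, 1.18 and 1.23 in cluster 0. It was 1.18, 1.09 and 1.17 in cluster 1, and 1.17, 1.11 and 0.99 in cluster 2. In clusters 1 and 2 the intervals of both injured libraries include 1, so the sides could not be told apart there. For Rgs5 the ratio over the cells of clusters 0 to 2 together was 0.89, 0.97 and 1.03. For Rgs16 after ischemic injury it was 5.09 (2.23 to 13.6) over all these cells and 1.03 (0.44 to 2.42) within cluster 0. The part of tissue handling in these values was not tested.

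For the rest of the G protein machinery in NG2 pericytes, the counts past 2-fold were 0, beside 0.603, 0.393 and 0.818% of all genes, a share at which lists of this size seldom hold a call. In each of the 3 contrasts, 0 of the 7 G alpha subunits at 50 CPM or more (of 12), 0 of the 7 or 8 G beta and gamma subunits (of 15), 0 of the 7 vasoactive receptors (of 44 measured), 0 of the 10 effectors (of 16) and 0 of the 5 N-degron enzymes (of 7) were past 2-fold. The list medians lay between -0.12 and 0.18 on the log2 scale, against -0.03 to 0.01 over all genes. In NG2 smooth muscle 0 genes of these lists and 0 of the 11 immediate early genes were past 2-fold in any of the 3 contrasts.

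In NG2 smooth muscle-like cells, Rgs5 fell after physical injury and Rgs6 again stood highest in that library. Between physical injury and naive 0.331% of genes were past 2-fold and 0 of the 3 RGS genes tested, between ischemic injury and naive 0.469% and 0 of 4, and between both injuries 0.471% and 1 of 4. Rgs5 was at 4314, 3250 and 4568 CPM in the naive, physical injury and ischemic injury libraries, with ratios to naive of 0.75 (0.73 to 0.77) and 1.06 (1.03 to 1.09). Rgs4 was at 827, 687 and 850 CPM, with ratios of 0.83 (0.78 to 0.88) and 1.03 (0.97 to 1.09). Rgs6 was at 274, 375 and 212 CPM, with ratios of 1.37 (1.25 to 1.497) and 0.77 (0.69 to 0.86).

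The 1 gene past 2-fold in NG2 smooth muscle was Rgs16, between the injuries, at 56.7 CPM after ischemic and 23.9 CPM after physical injury (ratio 2.37, 1.73 to 3.29). Without cells that held 2 or more UMIs of endothelial, microglia, OPC or oligodendrocyte markers, 0 RGS genes were past 2-fold in that contrast. Rgs2 was higher in both injured libraries, at 2.98 (1.74 to 5.26) and 3.52 (2.07 to 6.14) times naive, but from 22 UMIs and with levels under 20 CPM. Rgs3 and Rgs10 stayed between 7.20 and 10.4 CPM, with intervals of every ratio that include 1.

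Smooth muscle-like cells with and without Vtn differed in Rgs5, and their shares differed between libraries. At 1000 UMIs per cell, 48.3, 61.5 and 55.2% of NG2 smooth muscle-like cells of the naive, physical injury and ischemic injury libraries had no Vtn UMI. In these cells Rgs5 was at 2226 CPM (2041 to 2423), 2320 CPM (2080 to 2579) and 2906 CPM (2639 to 3193). In the cells with a Vtn UMI it was at 7324, 7272 and 7380 CPM. The naive and physical injury intervals overlapped in the cells without Vtn, whereas the ischemic injury cells without Vtn lay above the naive ones. The ischemic injury library had more Rgs5 than the naive one although a smaller share of its cells held Vtn (44.8 against 51.7%). The part of cell makeup in the Rgs5 level of a library was not tested.

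The same split applied to the Tbx18 smooth muscle-like cells, where Rgs5 showed the widest swing. There it was at 4712 CPM in the naive, 1778 CPM in the physical injury and 5448 CPM in the ischemic injury library, with ratios of 0.38 (0.36 to 0.39) for physical injury and 1.16 (1.08 to 1.24) for ischemic injury against naive. The latter turned with the methods' cell filters applied again, to -0.39 on the log2 scale. In this cluster 8.74% of all genes were past 2-fold between physical injury and naive and 1 of the 3 RGS genes tested, which was Rgs5. Cells without a Vtn UMI at 1000 UMIs were 38.7, 81.7 and 37.5% of the cells, and in them Rgs5 was at 1375 CPM (946 to 1931) in 24 naive and 1441 CPM (1352 to 1534) in 676 physical injury cells. In cells with a Vtn UMI it was at 7500 CPM (6654 to 8423) and 3556 CPM (3262 to 3870). The ischemic injury library was higher in both kinds, at 3733 CPM (2820 to 4848) in 15 cells without and 12920 CPM (11549 to 14409) in 25 cells with a Vtn UMI. Thinned cells weigh the same, whereas deeper cells weigh more in a summed level, so these values need not match the 5448 CPM. The summed pericyte markers of the whole cluster stood at 4465, 1545 and 3997 CPM.

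Between ischemic injury and naive in Tbx18 smooth muscle 15.8% of genes were past 2-fold and 1 of the 3 RGS genes tested, which was Rgs6. It stood at 506 CPM in the naive, 350 CPM in the physical injury and 238 CPM in the ischemic injury library, with ratios to naive of 0.69 (0.61 to 0.79) and 0.47 (0.34 to 0.64). The ischemic library gave 47 such cells and 52 UMIs of Rgs6. Its endothelial markers summed to 1236 CPM against 71.4 CPM in the naive library, and without cells holding UMIs of other types 0 RGS genes were past 2-fold. Between both injuries 10.6% of genes were past 2-fold and 1 of 3 RGS genes, Rgs5, with a ratio of ischemic to physical injury of 3.06 (2.89 to 3.25). Rgs4 was at 1263, 696 and 966 CPM, and Rgs10 had 7 UMIs in the naive library and 0 in the ischemic injury library, where a count of 0 allows up to 13.7 CPM.

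The Tbx18 pericyte-like cells differed more between libraries than the NG2 ones, for RGS genes and for genes in general. Between physical injury and naive 10.3% of genes were past 2-fold and 2 of the 6 RGS genes tested (Rgs16 higher, Rgs10 lower). Between ischemic injury and naive it was 12.5% of genes and 2 of 5, again Rgs16 and Rgs10, and between both injuries 4.77% of genes and 0 of 5. The Rgs10 calls depended on the processing. Its log2 ratio lay between -1.39 and -0.31 for physical injury over the alternatives, and between -2.60 and 0.12 for ischemic injury, where it turned as a mean of per-cell CPM. The cells of this cluster also changed in makeup and depth. Their median depth was 6547.5, 2540 and 3791.5 UMIs, the summed endothelial markers were at 171, 1027 and 1462 CPM, and the summed smooth muscle markers at 2181, 6729 and 3457 CPM. The part of this in the values that follow was not tested.

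Rgs4 and Rgs5 were lower in the injured Tbx18 pericytes, and Rgs6 stood at about the same level in all 3 libraries. Rgs5 was at 8611, 6613 and 5364 CPM in the naive, physical injury and ischemic injury libraries, with ratios to naive of 0.77 (0.75 to 0.79) and 0.62 (0.59 to 0.65). Rgs4 was at 1672, 839 and 857 CPM, with ratios of 0.50 (0.47 to 0.54) and 0.51 (0.45 to 0.58), just short of 2-fold. Rgs6 was at 560, 556 and 556 CPM, with ratios of 0.99 (0.90 to 1.09) and 0.99 (0.85 to 1.16). Rgs10 was at 66.6, 33.0 and 31.2 CPM, from 99, 49 and 11 UMIs, and Rgs3 at 37.7, 50.5 and 28.4 CPM with intervals of both ratios that include 1. The pericyte markers of the cluster fell from 23484 CPM in the naive to 14393 and 15015 CPM in the injured libraries, a change in the direction of Rgs4 and Rgs5.

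Rgs16 was the RGS gene with the widest difference in Tbx18 pericytes, at 73.3 CPM (60.2 to 88.4) in the naive, 542 CPM (505 to 580) in the physical injury and 670 CPM (587 to 761) in the ischemic injury library. The ratios to naive were 7.39 (6.04 to 9.11) and 9.14 (7.25 to 11.6). In both injured libraries Rgs16 was higher in cells with more immediate early UMIs and in cells with mesenchymal-like markers. After physical injury, thinned cells above the median of summed immediate early UMIs of these pericyte-like cells had Rgs16 at 781 CPM. The other thinned cells had it at 21.9 CPM (ratio 35.7, 13.6 to 133). After ischemic injury it was at 811 against 132 CPM (ratio 6.16, 2.37 to 20.3). Whether both splits pick the same cells was not tested. In cells with a UMI of Nnmt, Col1a1 or Dcn, Rgs16 was at 85.3 CPM (53.4 to 129) in 35 naive, 1369 CPM (1251 to 1495) in 72 physical injury and 1495 CPM (1260 to 1761) in 15 ischemic injury cells. These cells were 15.5, 16.6 and 17.4% of the cells and gave 20.2, 61.2 and 60.6% of the Rgs16 UMIs.

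In the remaining Tbx18 pericyte-like cells Rgs16 was at 70.8 CPM (56.7 to 87.3), 277 CPM (247 to 310) and 362 CPM (292 to 444), so it was higher in the injured libraries there as well, but by less. These cells were shallower than those with the markers (medians of 6400, 2215 and 3217 against 7485, 4401.5 and 6257 UMIs), so a cell can lack a marker UMI through depth. The naive cells without a marker UMI also included mesenchymal-like ones. Of the Tbx18 cells in mesenchymal-like cluster 9 of the naive data, 6 are in Tbx18 cluster 2. There, 4 Tbx18 cells without a marker UMI held 59 Rgs16 UMIs, whereas the naive value of 70.8 CPM rests on 87. In the cluster as a whole Nnmt went from 9.41 to 64.7 and 73.8 CPM. Rgs16 is also among the leading genes of the mesenchymal-like cluster of the NG2 data.

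Without the cells holding a UMI of these markers, an alternative chosen after seeing the data, Rgs4, Rgs5, Rgs10 and Rgs16 of Tbx18 pericytes kept their direction in both injured libraries against naive, and Rgs6 stayed near 0. On the log2 scale Rgs16 was then at 1.97 after physical and 2.36 after ischemic injury against naive, where it had been at 2.89 and 3.19. Rgs4 was at -0.96 and -0.92, Rgs5 at -0.44 and -0.66, and Rgs6 at 0.06 and 0.13. Rgs10 was at -0.72 and -0.91, so it was no longer past 2-fold in either contrast. The list counts in Tbx18 pericytes stand beside 10.3% of all genes past 2-fold after physical and 12.5% after ischemic injury against naive. Between physical injury and naive 1 receptor was higher and 2 lower past 2-fold of 8 at 50 CPM, 3 of 12 effectors were higher, and 1 of 11 immediate early genes was higher. Between ischemic injury and naive 3 receptors were higher and 3 lower of 10, and 1 of 8 G alpha subunits and 1 of 11 immediate early genes were higher. In Tbx18 smooth muscle 0 of 11 immediate early genes were past 2-fold between physical injury and naive, beside 8.74% of all genes. Between ischemic injury and naive 7 of 11 were lower, beside 15.8% of all genes past 2-fold either way.

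Other lists also had calls in Tbx18 smooth muscle, where 8.74 and 15.8% of all genes were past 2-fold against naive after physical and ischemic injury. Of the 5 N-degron enzymes at 50 CPM, 2 were lower past 2-fold after physical injury and 1 after ischemic injury. The list medians were -0.45 and -0.58 on the log2 scale, against -0.11 and 0.02 over all genes. Genes over 100 kb had medians of -0.39 and -0.40 in these contrasts, and the part of gene length was not tested. In Tbx18 pericytes 0 of 5 were past 2-fold in both contrasts. Of the receptors in Tbx18 smooth muscle, 3 of 6 were lower after physical injury, and 1 of 8 was higher and 1 lower after ischemic injury. Of the 12 effectors 1 was higher and 1 lower in each contrast, and 1 of 8 G alpha subunits was higher after ischemic injury.

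**Figure D4:**
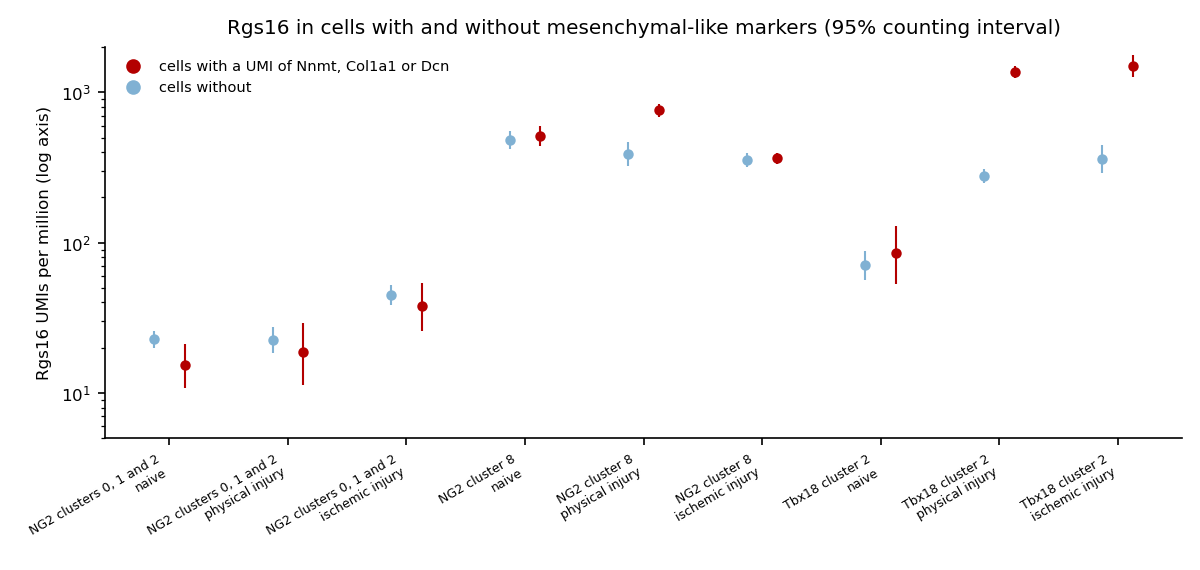
Rgs16 in CPM (log axis) in cells with (red) and without (blue) a UMI of the mesenchymal-like markers Nnmt, Col1a1 or Dcn, by cluster and library, with 95% counting intervals. In Tbx18 cluster 2 the cells with a marker lie at 85.3, 1369 and 1495 CPM and those without at 70.8, 277 and 362 CPM, whereas both kinds lie between 15.3 and 44.8 CPM in NG2 clusters 0 to 2. The marker UMIs of NG2 clusters 0 to 2 were mostly of Dcn (44.8 to 65.3 CPM, against 2.05 to 6.90 CPM for Nnmt). In mesenchymal-like NG2 cluster 8 cells with a marker lie at 512, 758 and 365 CPM and those without at 484, 388 and 353 CPM. The intervals overlap there in the naive and ischemic injury libraries but not in the physical injury library.

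NG2 cluster 8, which was mesenchymal-like (177 naive, 81 physical injury and 240 ischemic injury cells), kept the mural RGS genes beside Rgs16. Rgs16 was at 496 CPM in the naive, 611 CPM in the physical injury and 361 CPM in the ischemic injury library, with ratios to naive of 1.23 (1.07 to 1.42) and 0.73 (0.64 to 0.82). Rgs5 was at 6590, 5124 and 4746 CPM and Rgs4 at 1255, 748 and 673 CPM, so both were lower in the injured libraries, at 0.78 and 0.72 of naive for Rgs5 and 0.60 and 0.54 for Rgs4. Rgs6 fell furthest, from 291 CPM to 186 and 92.8 CPM, with ratios of 0.64 (0.51 to 0.79) and 0.32 (0.26 to 0.39). Acta2 rose in the same cells, from 281 to 2167 and 1062 CPM.

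NG2 cluster 10 is a small pericyte-like cluster of 44, 23 and 43 cells that has Rgs6 among its leading genes. Rgs6 was at 1538, 1878 and 812 CPM there, several times its level in clusters 0 to 2, and Rgs5 at 4380, 3741 and 4461 CPM. Between libraries, Rgs6 after ischemic injury was at 0.53 (0.40 to 0.69) of naive and at 0.43 (0.32 to 0.58) of the physical injury level. A lower Rgs6 after ischemic than after physical injury was thus seen in NG2 clusters 0, 1, 2, 3, 8 and 10. These clusters share the same 2 libraries, so they do not repeat the difference independently. Genes over 100 kb had median log2 ratios of -0.25 in pericytes and -0.16 in smooth muscle in that contrast, and the part of gene length was not tested. Grin2a, Sntb1 and Cacna1c, which lead this cluster together with Rgs6, code for ion channels and a membrane scaffold.

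Without injury, Rgs6 was higher in pericytes of the Tbx18 line, and Rgs16 differed with the grouping. The comparison used the clustering of both naive libraries together, with pericyte-like clusters 0, 2, 3, 5 and 8 (2555 NG2 and 237 Tbx18 cells). Between the lines 3.26% of 4329 genes were past 2-fold and 0 of the 4 RGS genes tested. Rgs6 stood at 605 CPM (565 to 648) in Tbx18 and 315 CPM (305 to 326) in NG2 pericytes, a ratio of 1.92 (1.78 to 2.07). Rgs4 was equal, at 1668 CPM in both (ratio 1.00, 0.96 to 1.04), and Rgs5 was at 8551 and 7748 CPM (ratio 1.10, 1.08 to 1.13). Rgs10 was at 65.8 and 85.1 CPM (ratio 0.77, 0.62 to 0.96), and the ratios of Rgs2, Rgs3 and Rgs16 had intervals that include 1. With the clusters of each line, as used above, naive Rgs16 was instead at 73.3 CPM (60.2 to 88.4) in Tbx18 and 21.3 CPM (18.9 to 24.0) in NG2 pericytes and Rgs6 at 560 and 280 CPM, and both genes were past 2-fold. Of the naive cells in Tbx18 cluster 2, 6 lie in mesenchymal-like cluster 9 of the naive data, which the comparison above left out. The Tbx18 cells of that cluster held 18 Rgs16 UMIs in 3 cells with and 59 in 4 cells without a UMI of Nnmt, Col1a1 or Dcn. Tbx18 cluster 2 held 109 naive Rgs16 UMIs, and the Tbx18 cells of the pericyte-like clusters pooled above held 27 (19.5 CPM, against 22.7 CPM in NG2).

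By cluster, Rgs6 was higher in Tbx18 cells in 5 of the 6 clusters compared. The ratio was 2.10 (1.79 to 2.46) in cluster 0, 1.95 (1.40 to 2.66) in cluster 1, 1.41 (1.22 to 1.62) in cluster 2, 1.89 (1.57 to 2.26) in cluster 5 and 2.40 (2.04 to 2.83) in cluster 8. In cluster 3, where Rgs4 was highest, it was 0.98 (0.64 to 1.43) from 28 Tbx18 UMIs, so the lines could not be told apart there. Cluster 1, with 3 erythrocyte markers among its leading genes, was left unnamed and was not pooled with the pericyte-like clusters above. Long genes were higher in the Tbx18 library in general, with a median log2 ratio of 0.48 over 864 genes spanning over 100 kb and -0.37 over 1584 genes under 20 kb, against 0.94 for Rgs6. The part of gene length was not tested.

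**Figure D5:**
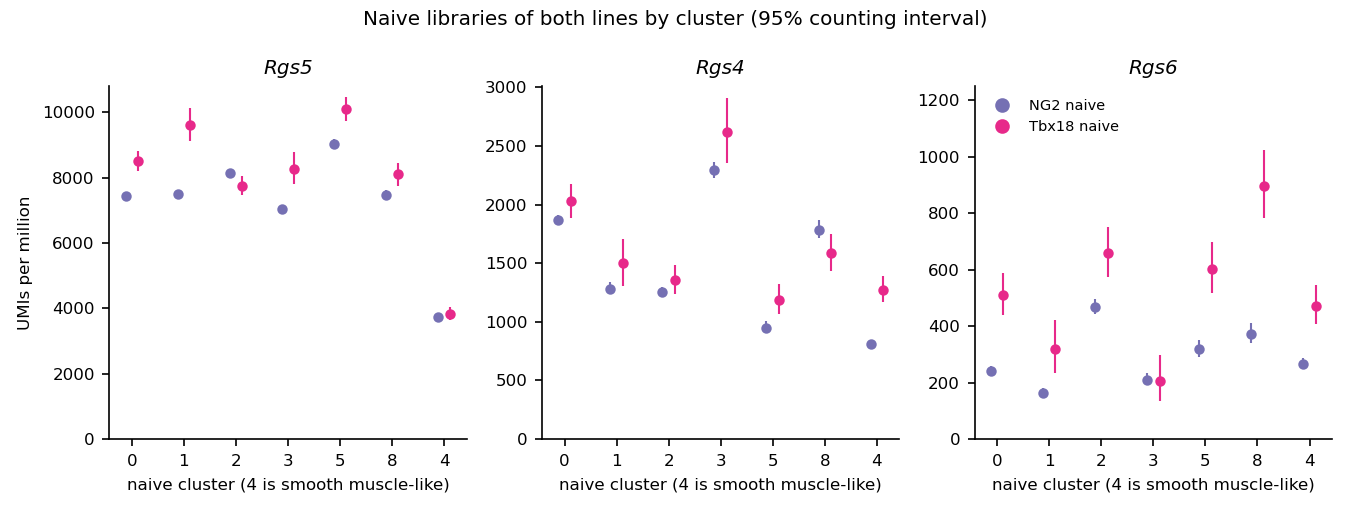
CPM of Rgs5, Rgs4 and Rgs6 in the naive libraries of both lines by cluster of the naive data, with 95% counting intervals. Rgs6 is higher in the Tbx18 library in all clusters shown but cluster 3 (ratio 0.98), while Rgs4 differs most in smooth muscle-like cluster 4 (ratio 1.58).

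Naive smooth muscle-like cells (393 NG2 and 47 Tbx18 cells) showed the same difference in Rgs6 and a further one in Rgs4. Between the lines 4.79% of genes were past 2-fold and 0 of the 3 RGS genes tested. Rgs6 was at 473 CPM in Tbx18 and 268 CPM in NG2 cells (ratio 1.77, 1.505 to 2.07), Rgs4 at 1276 and 808 CPM (ratio 1.58, 1.43 to 1.74), and Rgs5 at 3842 and 3747 CPM (ratio 1.03, 0.97 to 1.08). Rgs2 was at 27.1 and 6.11 CPM, from 11 and 21 UMIs (ratio 4.44, 1.93 to 9.62). Genes over 100 kb had a median log2 ratio of 0.30 in this contrast, against 0.82 for Rgs6 and 0.66 for Rgs4, which itself spans 6166 bp.

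Outside the mural clusters the 7 genes separated. Rgs2 and Rgs10 were highest in NG2 cluster 9, named microglia in the study and holding C1qa at 3732 to 6017 CPM. Rgs2 stood at 731, 339 and 221 CPM there in the naive, physical injury and ischemic injury libraries, and Rgs10 at 911, 830 and 686 CPM. Rgs3 was above its level in NG2 pericytes in cluster 4 (oligodendrocytes in the study), at 99.3, 92.3 and 94.4 CPM, and in cluster 5 (endothelial cells in the study), at 81.5, 83.4 and 75.7 CPM. In the Tbx18 data the cells of cluster 3, also named microglia, divided by library. The 76 naive cells had Rgs5 at 6176 CPM, C1qa at 8.87 CPM and a median of 1117.5 UMIs, so they go against that name. The injured cells had C1qa at 2017 and 1479 CPM and Rgs2 at 472 and 521 CPM. By the marker lists the whole cluster was neutrophil-like, with border macrophage markers as its second list. The name microglia is therefore not borne out for the injured cells either.

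Rgs5 outside mural cells is given with its ratio to Vtn, since free RNA from 1 source keeps its genes in 1 ratio. Mural clusters themselves differed in this ratio, at 0.32 to 0.55 in NG2 clusters 0 to 2, 1.18, 1.43 and 0.63 in cluster 10 and 2.52 to 3.26 in smooth muscle-like cluster 3. In NG2 cluster 4 it was at 64.2, 43.2 and 48.5 CPM, and its ratio to Vtn there was 0.33, 0.51 and 0.71. In NG2 cluster 5, with Cldn5 at 4212 to 5062 CPM, Rgs5 was at 2770, 1511 and 1383 CPM with a ratio to Vtn of 1.13 to 1.74, within the range of the mural clusters. In Tbx18 cluster 0, which the study named endothelial cells, Rgs5 was at 1855, 272 and 88.9 CPM, and the ratio to Vtn was 1.56, 6.99 and 16.3 (the last from 77 Vtn UMIs), against 0.66 to 0.86 in the pericyte-like and 2.80 to 6.10 in the smooth muscle-like cluster of that line. The part of free RNA in these levels was not tested. Rgs4, by contrast, was at 193, 6.17 and 0.355 CPM in that cluster.

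Likeness across cells followed the same division. Over 31 combinations of NG2 cluster and library with at least 20 cells, and among 8847 genes that reached 50 CPM in at least 1 of them, the genes with the highest Pearson r of log2(CPM + 1) were taken for each RGS gene. Those points share libraries, depth and clusters. For Rgs5 they were Nr2f2, Notch3, Heyl, Tbxa2r and Tns2 (r of 0.98 for each), which include the mural Notch receptor, its target Heyl and the thromboxane receptor. For Rgs4 they were Zic1, S1pr3, Pcdh18, Nr2f2 and Mfge8 (0.98 to 0.99), with the sphingosine 1-phosphate receptor S1pr3 among them, and for Rgs6 they were Arhgap6, St5, Dlc1, Cped1 and Frk (0.97 to 0.98).

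The genes most like the other RGS genes were of other kinds. For Rgs10 they were Otulinl, Renbp, Tram1, Hspa5 and Limd2 (0.90 to 0.93), and for Rgs2 Skap2, Pfkfb3, Phyhd1, Dennd4a and Slc7a8 (0.83 to 0.88). For Rgs16 they were S100a11, Cebpd, Anxa2, Tpm4 and Mxra7 (0.87 to 0.89), and for Rgs3 Add3, Pde8a, Dnm2, Gcc2 and Usp6nl (0.75 to 0.85). Among the 7 themselves r was 0.96 for Rgs4 with Rgs5, 0.93 for Rgs4 with Rgs6, 0.88 for Rgs5 with Rgs6 and -0.65 for Rgs2 with Rgs5. Rgs3 was within 0.30 of 0 with each of the other 6.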

How the data were processed

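The authors deposited tables of UMI counts, made from 10x Single Cell 3' libraries of sorted tdT+/DAPI- cells. Per the submitters' processing notes, Cell Ranger 7.0.0 and mm10 were used. The study's methods give a range of Cell Ranger versions ending with this one, so versions may differ between libraries. The authors also deposited the percent of mitochondrial transcripts of each cell, used here only as a filter in an alternative, and the cluster number of each cell from 3 Seurat integrations (both naive libraries, the NG2 line, the Tbx18 line). The deposited cells had passed the authors' filters, and naive cells have the same counts in both tables that hold them. All 6 libraries were mapped to groups from the labels, and 0 columns of sample values were left unused.

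Counts were summed per cluster and library and divided by all UMIs of those cells (CPM). Levels have exact Poisson intervals, ratios exact conditional binomial intervals and shares exact Clopper-Pearson intervals. With 1 library per group no test was made. A gene was called past 2-fold with at least 50 CPM in the higher group, and a count of 0 was given an upper limit of 3 counts. For shares of cells, each cell was reduced at random to 1000 UMIs. Neither the labels nor the methods mention doublets. They were not called here, and an alternative left out cells with 2 or more UMIs of another type's markers.

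The members and the gene lists were chosen with earlier results of these data known. The 7 RGS genes are named throughout, a gene of a list only where it reached 50 CPM and was past 2-fold in a contrast of NG2 pericytes or smooth muscle (at most 6 per list), and 5 genes per RGS gene by likeness. Receptors, markers and the leading genes of cluster 10 are named to describe a group. Clusters took the name of the marker list with the highest relative level. A cluster stayed unnamed where fewer than 3 of those markers were detected or another list had more genes among its 10 leading genes. It also stayed unnamed where it was shallow and lacked those markers among its leading genes. Genes not reported here were left out of the split of cells by mesenchymal-like markers. Positions and coding starts come from the M21 release of GENCODE, and the authors' annotation release is not given in the sources used here. The summing was tested on simulated data. TMM factors came from edgeR 4.0.16 in R 4.3.3, and all else from Python 3.11.15 with scipy 1.17.1, pandas 2.3.3, numpy 2.4.6 and matplotlib 3.10.9.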

Additional observations from a re-analysis of the deposited data

Results flagged for a closer look

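Several RGS ratios had opposite directions in the 2 lines, each with counting intervals on opposite sides of 0, and these differences were not tested, since each line has 1 library per condition. Rgs5 in pericytes, ischemic injury against naive, was at a log2 ratio of 0.22 (0.20 to 0.24) in the NG2 line and -0.68 (-0.75 to -0.61) in the Tbx18 line, a difference of -0.90. The NG2 value turned to -0.024 with clusters 8 and 10 added. Rgs5 in pericytes, ischemic against physical injury, was at 0.24 (0.22 to 0.26) and -0.30 (-0.37 to -0.23), a difference of -0.54. Rgs6 in smooth muscle, physical injury against naive, was at 0.45 (0.32 to 0.58) and -0.53 (-0.72 to -0.34), a difference of -0.99. Beside the Rgs5 values, the summed pericyte markers of the Tbx18 pericytes went from 23484 CPM in the naive to 15015 CPM in the ischemic injury library, against 30881 and 29347 CPM in NG2 pericytes, and its part in the difference was not tested. Beside the Rgs6 values, genes over 100 kb had a median log2 ratio of 0.07 in NG2 and -0.39 in Tbx18 smooth muscle, and its part was not tested either.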

How the results depend on the processing

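No paired analysis was possible because each group is 1 pooled library. Of 455 recomputed log2 ratios of RGS genes with enough counts, 415 kept their sign, and 12 turned although the original interval lay on 1 side of 0. In NG2 pericytes, physical injury against naive, Rgs4 was at 0.048, Rgs5 at 0.046 and Rgs10 at 0.055 in cluster 1 alone, and Rgs5 at 0.020 in cluster 0 alone and 0.017 as a mean of per-cell CPM. For ischemic injury against naive, Rgs5 was at -0.024 with clusters 8 and 10 added. In NG2 smooth muscle, ischemic injury against naive, Rgs6 was at 0.083 in thinned cells and Rgs16 at -0.052 without cells with UMIs of other types. In Tbx18 pericytes Rgs10 was at 0.12 for ischemic injury against naive as a mean of per-cell CPM, and Rgs16 at -0.38 between the injuries with cluster 4 added. In Tbx18 smooth muscle, Rgs5 for ischemic injury against naive was at -0.39 with the methods' filters applied again, and Rgs4 between the injuries at -0.094 in thinned cells. The cause was not tested.

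The number of RGS genes past 2-fold also moved. In NG2 pericytes it was 1 for physical injury against naive with clusters 8 and 10 added, 1 for ischemic injury against naive in cluster 0 alone and with clusters 8 and 10 added, and 1 between the injuries in cluster 0 or 1 alone. In NG2 smooth muscle it was 1 for ischemic injury against naive in thinned cells, and 0 between the injuries without cells with UMIs of other types. In Tbx18 pericytes, physical injury against naive, it was 1 with totals without mitochondrial and ribosomal protein genes, with the filters applied again and without mesenchymal-marker cells (an alternative chosen after seeing the data), and 4 with cluster 4 added. For ischemic injury against naive it was 1 as a mean of per-cell CPM and without mesenchymal-marker cells, and between the injuries 1 with cluster 4 added. In Tbx18 smooth muscle it was 0 without cells of other types and 2 in thinned cells for ischemic injury against naive, and 2 between the injuries in thinned cells and by per-cell means. Between the naive lines it was 2 in pericytes grouped by the clusters of each line, and 1 in smooth muscle with the filters, without cells of other types, thinned and by per-cell means.

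The share of all genes past 2-fold rose with a lower minimum. With at least 10 CPM it was 0.96 and 1.34% in NG2 pericytes (ischemic injury against naive and between the injuries) and 1.44, 1.68 and 2.44% in NG2 smooth muscle (physical and ischemic injury against naive, then between the injuries). It was 20.4 and 13.4% in Tbx18 pericytes (ischemic injury against naive and between the injuries), 16.1, 26.6 and 20.4% in Tbx18 smooth muscle, and 7.0 and 14.2% between the naive lines in pericytes and smooth muscle. With no minimum and a pseudocount of 1 CPM it was 1.04, 2.11 and 2.75% in NG2 pericytes, 4.58, 5.18 and 6.56% in NG2 smooth muscle, 22.3, 32.8 and 25.5% in Tbx18 pericytes, 21.6, 40.6 and 26.6% in Tbx18 smooth muscle, and 11.6 and 23.0% between the naive lines. TMM factors shifted all ratios by over 0.1 on the log2 scale in Tbx18 smooth muscle (-0.21 for physical injury against naive, 0.23 between the injuries) and naive smooth muscle (0.12) only.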
